A study of Homo sapiens with 6 samples.

Results

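The MCM helicase genes were followed in A549 cells in which BAP18 had been knocked down by RNA interference. The 9 genes described were chosen by symbol from the 35474 genes of the count table, and they are MCM2, MCM3, MCM4, MCM5, MCM6, MCM7, MCM8, MCM10 and MCMBP. All 9 passed the filter on low counts and were among the 20776 genes tested. A549 is an established human lung adenocarcinoma line, and BAP18, listed under its gene symbol C17orf49, is a subunit of chromatin-modifying complexes. The knockdown group (siBAP18) received a small interfering RNA (siRNA) against BAP18 and the control group (siCtrl) a nontargeting one, and RNA of both was taken 48 h after transfection. Each group had 3 libraries, which the labels call biological replicates. All 6 came from the same line, the siRNA is the one difference between the groups that the labels give, and the sources do not say which of the study's BAP18 siRNAs was transfected. The comparison asks how the transcripts of the replicative helicase stood after BAP18 loss.

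The members are spread over the genome (hg38 coordinates, equal to the gene bounds of GENCODE 29). MCM2 lies on chromosome 3 at 127598223-127622436, MCM3 on chromosome 6 at 52264009-52284881 and MCM4 on chromosome 8 at 47960185-47978160. MCM5 lies on chromosome 22 at 35400063-35425430, MCM6 on chromosome 2 at 135839626-135876426 and MCM7 on chromosome 7 at 100092728-100101940. MCM8 lies on chromosome 20 at 5950652-5998977, and MCM10 and MCMBP share chromosome 10, at 13161554-13211104 and 119829404-119892556. MCM3, MCM6, MCM7 and MCMBP are on the minus strand and the others on the plus strand.

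The proteins MCM2 to MCM7 form the hexameric ring that unwinds DNA at the replication fork. The ring is loaded onto origins in an inactive double form during G1 and is switched on in S phase by kinases and by the cofactors CDC45 and GINS. Proliferating cells keep many more rings than they use, and quiescent cells lose them. MCM8 works with MCM9 as a separate helicase in homologous recombination, MCM10 is needed to fire the loaded ring and lacks the helicase fold, and MCMBP binds MCM3 to MCM7 assemblies and helps build and protect newly made subunits. Genes of the family are textbook targets of the E2F transcription factors.

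Promoter sequence from RefSeq (GRCh38.p14), running from 250 bases before to 50 bases after an annotated start, was given for 7 members and not for MCM4 and MCM5. Words of the E2F site (TTTCCCGC, TTTCGCGC, TTTGCCGC or TTTGGCGC on either strand, which can overlap each other) were found in 6 of the 7 members, against 3.99% of the 27305 genes with a window. The member without a word was MCM10. Stretches of 30 bases around a word are shown because 6 of the 7 members hold a word and most other genes lack one. Capitals mark the words, merged where 2 of them overlap.
MCM2 (chr3:127598404-127598433, plus strand): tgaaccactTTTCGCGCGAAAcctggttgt
MCM3 (chr6:52284728-52284757, minus strand): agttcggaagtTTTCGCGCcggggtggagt
MCM6 (chr2:135876575-135876604, minus strand): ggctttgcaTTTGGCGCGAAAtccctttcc
MCM6 (chr2:135876513-135876542, minus strand): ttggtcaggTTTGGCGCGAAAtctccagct
MCM7 (chr7:100101388-100101417, minus strand): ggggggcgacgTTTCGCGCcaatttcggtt
MCM8 (chr20:5950667-5950696, plus strand): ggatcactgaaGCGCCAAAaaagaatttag
MCMBP (chr10:119872834-119872863, minus strand): ggcggcggctaTTTCCCGCcattgtgcgaa
In MCM2 and MCM6 a word on one strand runs into a word on the other, which makes a block of 12 bases, and MCM6 holds 2 such blocks, at −152 to −141 and −90 to −79 from the start. The words of MCM3, MCM7 and MCMBP shown here cover or abut the start, at −4 to 4, −9 to −2 and −9 to −2. Those of MCM2 and MCM8 lie inside the transcript, at 3 to 14 and 27 to 34. MCM3 and MCM7 each hold a further word that is not shown, at −174 to −167 and −187 to −180. The window of MCMBP with the word is the second of its 2 annotated starts, and MCM7 holds words in the first of its 3 windows alone. The CCAAT box (CCAAT on either strand) was found in 5 of 7 members against 39.7% of genes, and the word TTTGAA of the cell cycle homology region in 0 of 7 against 18.2%. These are matches of letters only, and no binding was measured.

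Depth ran from 42094524 counts assigned to genes in siBAP18 replicate 3 to 56548620 in siBAP18 replicate 2. The targeted gene was checked first. C17orf49 stood at 14.0, 16.1 and 15.1 CPM (counts per 1000000, scaled by TMM factors) in siCtrl replicates 1, 2 and 3 and at 2.21, 2.35 and 2.66 CPM in siBAP18, a log2 fold change of −2.65 (SE 0.111) with an adjusted p of 7.3e-16 (edgeR's quasi-likelihood F test, Benjamini-Hochberg adjusted over all genes tested). Epithelial and A549 markers (KRT8, KRT18, EPCAM, AKR1B10 and ALDH3A1) were high in every library, at 23.3 RPKM (reads per kilobase of exon and per 1000000 counts) or more, whereas the lung lineage factor NKX2-1 was nearly absent at 0.0468 RPKM or less and CDKN2A, which the line has lost, at 0.0343 RPKM or less. At an edgeR adjusted p under 0.05, KRT8 (−0.37), KRT18 (−0.24), EPCAM (−0.41) and AKR1B10 (−0.96) were lower in siBAP18 on the log2 scale. ALDH3A1 (0.074) did not pass. Of the markers of blood, endothelium and fibroblasts, 6 were listed in the count table, and PTPRC and CD3E were not. Each of the 35474 genes listed held counts in some library, so a marker at 0 in every library could not appear. Whether PTPRC and CD3E are missing for lack of counts is not given. The summed level of the 6 listed markers was 1.77 to 2.09 RPKM in siCtrl and 1.44 to 1.51 RPKM in siBAP18. Of the 6, 5 stayed under 1 RPKM in all libraries, and COL1A1 (0.844 to 1.31 RPKM) and CD14 (0.422 to 0.691 RPKM) stood highest. Their part in the results was not tested. In siBAP18 the libraries numbered 2 and 3 deviated in opposite directions with the GC content of the transcript. These libraries also had the highest and the lowest TMM factor, 1.03 and 0.964. Each deviation was taken from the mean of the other siBAP18 libraries, so the deviations are not independent of each other. The Pearson r was −0.080, −0.48 and 0.48 for replicates 1, 2 and 3, across 14126 genes of at least 1 log2 CPM. Values of the members are therefore also given without replicate 3 where a call rests on it.

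All 9 members were lower in siBAP18 than in siCtrl, and in each of the 9 every siBAP18 library lay below every siCtrl library, where the groups were separated this way in 29.0% of the genes tested and the other way in 27.6%. All 9 fell at an adjusted p under 0.05, against 25.1% of all genes tested, and 0 rose, against 24.5%. The number that rose was also 0 at an unadjusted p under 0.05 and with DESeq2. With the added demand of an absolute log2 fold change over 1, 4 members were called lower (MCM4, MCM6, MCM8 and MCM10), against 3.74% of all genes, and 0 higher, against 4.72%. The median log2 fold change of the members was −0.995, and that of all genes tested was 0.0010. The transcripts of MCM10 and MCM8 fell most, those of MCM2 to MCM6 fell to 45.7% to 55.5% of the control, and those of MCM7 and MCMBP fell least. In a bulk culture, fewer cells in a phase that makes these transcripts and less of them in each cell cannot be told apart.

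**Figure D1:**
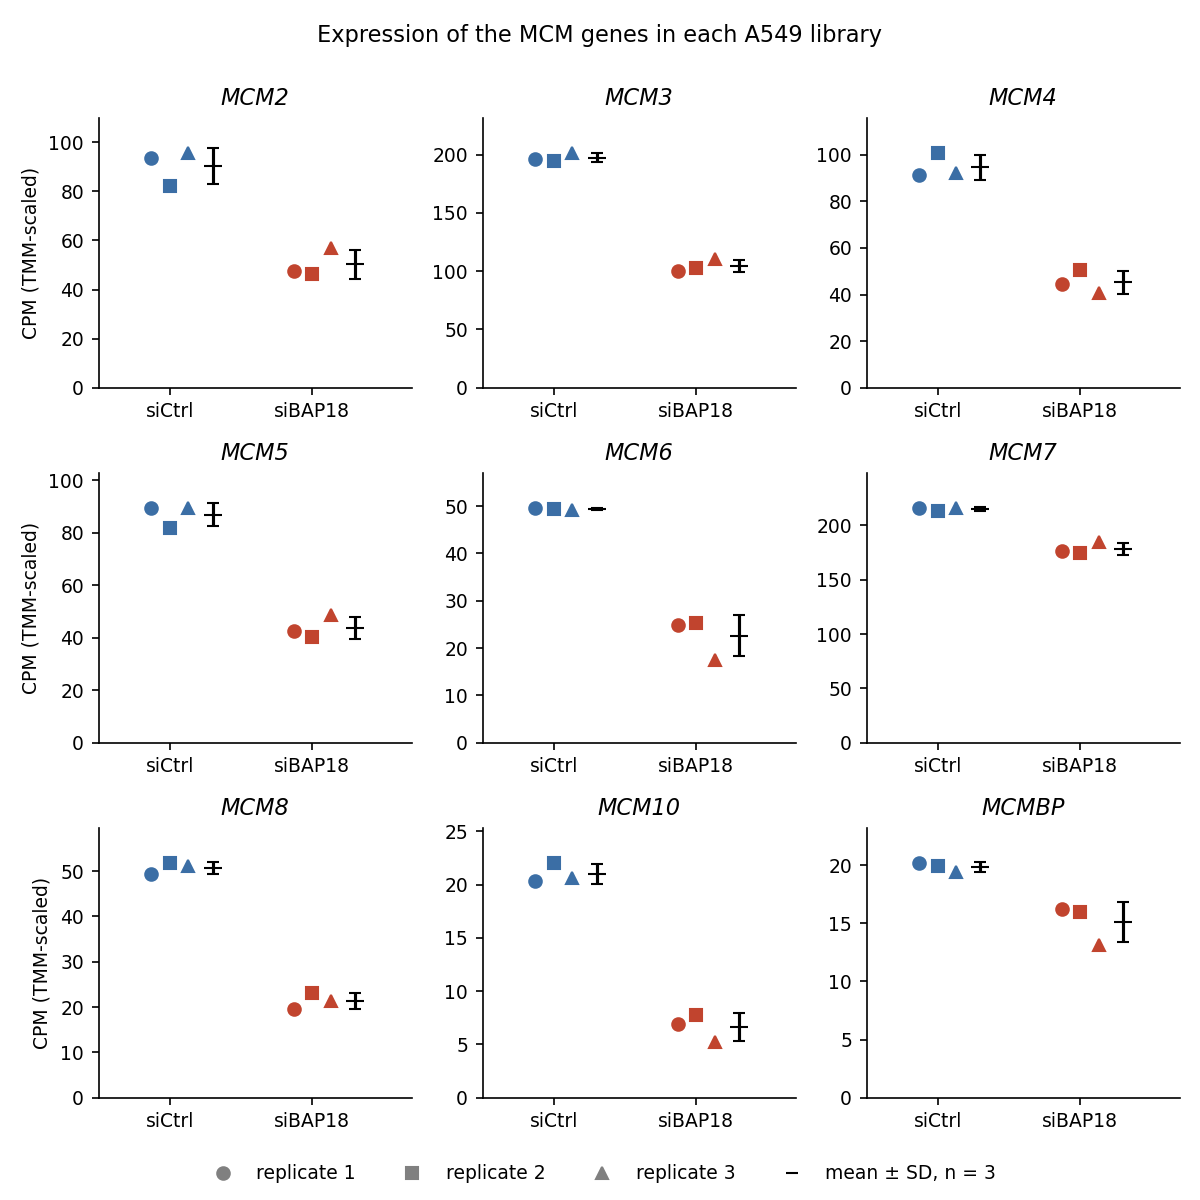
Expression of each MCM gene in CPM (linear axis from 0) in the 3 siCtrl libraries (blue) and the 3 siBAP18 libraries (red), with symbols for the replicates and black bars for the mean ± SD. In all 9 panels the red points lie below the blue points, with the smallest relative gap in MCM7 and MCMBP, and siBAP18 replicate 3 is the lowest point in MCM4, MCM6, MCM10 and MCMBP and the highest red point in MCM2, MCM3, MCM5 and MCM7.

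Within the ring, MCM2, the subunit with a long tail that binds histones H3 and H4, measured 93.5, 82.0 and 95.8 CPM in siCtrl and 47.6, 46.3 and 56.8 CPM in siBAP18. The groups did not overlap, and the log2 fold change was −0.85 (SE 0.0798). MCM3, which docks the ring to the loading machinery, measured 196, 195 and 202 CPM against 100, 102 and 110 CPM. Replicates of MCM3 lay close together in both groups, and its log2 fold change was −0.92 (SE 0.0660). MCM5, which with MCM2 forms the gate through which DNA enters the ring, measured 89.6, 82.0 and 89.4 CPM against 42.5, 40.2 and 48.5 CPM. Its log2 fold change of −0.995 (SE 0.0749) fell just short of the fold threshold. The adjusted p values of MCM2, MCM3 and MCM5 were 2.4e-09, 1.9e-11 and 4.6e-11 by the same edgeR test.

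MCM4 and MCM6, which with MCM7 form a stable trimer inside the ring, were the subunits called at both thresholds. MCM4 measured 91.1, 101 and 92.1 CPM in siCtrl and 44.4, 50.6 and 40.7 CPM in siBAP18, a log2 fold change of −1.07 (SE 0.0771, edgeR adjusted p 2.3e-11). MCM6 measured 49.7, 49.4 and 49.1 CPM against 24.9, 25.3 and 17.6 CPM, a log2 fold change of −1.12 (SE 0.0942, edgeR adjusted p 3.3e-10). The siCtrl libraries of MCM6 were nearly equal, and siBAP18 replicate 3 stood well below the other siBAP18 libraries. Without that library, the log2 fold change was −0.99 for MCM4 and −0.98 for MCM6, so both kept an adjusted p under 0.05 and both missed the fold threshold, while MCM5 at −1.07 passed it. MCM5 also passed it without siCtrl replicate 2 (−1.04) and without a filter on low counts (−1.01), and MCM4 missed it with limma on log2(RPKM + 1), filtered or not (−0.96). Which subunits were called at both thresholds therefore depended on the libraries and settings used.

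MCM7, the remaining subunit of the trimer, differed from the other ring subunits. It measured 216, 213 and 216 CPM in siCtrl and 176, 175 and 185 CPM in siBAP18, which is 83.1% of the control. The groups did not overlap, and the log2 fold change was −0.27 (SE 0.0640) with an edgeR adjusted p of 0.0011. Of all genes tested, 29.2% had a lower log2 fold change than MCM7, whereas the same share was 2.63% to 6.03% for MCM2 to MCM6.

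Outside the ring, MCM8 measured 49.3, 51.9 and 51.2 CPM in siCtrl and 19.6, 23.1 and 21.3 CPM in siBAP18. Its siBAP18 libraries lay at 41.98% of the control on average, with a log2 fold change of −1.25 (SE 0.0741, edgeR adjusted p 5.5e-13). MCM10 measured 20.3, 22.1 and 20.7 CPM against 6.87, 7.81 and 5.25 CPM. It had the largest fall of the 9 members, to 31.6% of the control, with a log2 fold change of −1.65 (SE 0.104, edgeR adjusted p 2.1e-12), and 0.544% of all genes tested had a lower one. It also had the fewest counts, 213 in siBAP18 replicate 3, where counting error alone was 6.85%. MCM8 and MCM10 were called at both thresholds in each of the 18 other settings of the analysis.

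MCMBP, the binding protein, measured 20.2, 19.9 and 19.4 CPM in siCtrl and 16.2, 16.0 and 13.1 CPM in siBAP18. The groups did not overlap, and siBAP18 replicate 3 was again the lowest. The log2 fold change was −0.39 (SE 0.0848, edgeR adjusted p 4.4e-04), to 76.1% of the control, and −0.30 without siBAP18 replicate 3. MCMBP was the member whose call was lost in 1 other setting, limma on log2(RPKM + 1) without a filter, at an adjusted p of 0.0569.

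**Figure D2:**
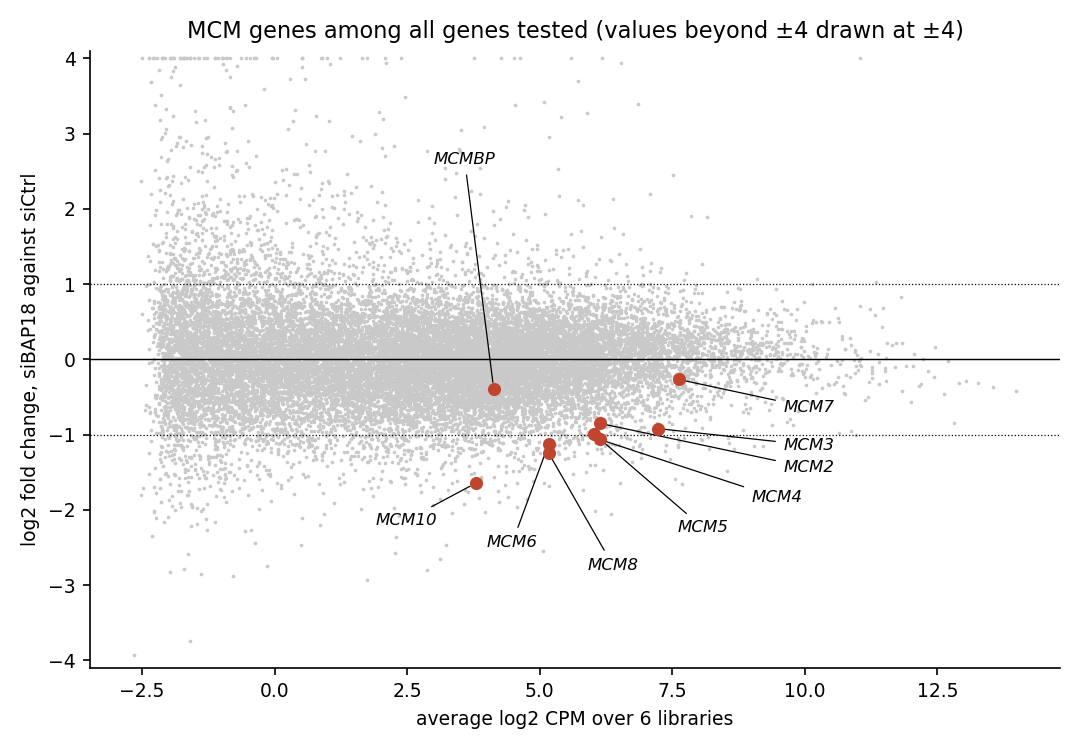
Log2 fold change of siBAP18 against siCtrl (vertical axis) against the average log2 CPM (horizontal axis) for the genes tested (grey) and the 9 MCM genes (red, labelled), with dotted lines at a log2 fold change of −1 and 1. All 9 lie below 0, from −0.27 (MCM7) to −1.65 (MCM10), and MCM3 and MCM7 are the most abundant of them.

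Levels of different genes were compared per length, in RPKM, which uses the summed exon length of each gene, and the order among MCM2 to MCM7 depends on that length, as described with the shares. In siCtrl, MCM3 stood highest at 54.0 ± 0.799 RPKM (SD, n = 3), followed by MCM7 at 48.9 ± 0.123 and, well below, MCM2 at 18.4 ± 1.31 and MCM4 at 13.9 ± 0.939 RPKM. MCM6 at 12.0 ± 0.140 and MCM5 at 11.8 ± 0.469 RPKM overlapped and were not ordered. MCM8 at 6.59 ± 0.229, MCM10 at 3.85 ± 0.211 and MCMBP at 3.30 ± 0.0758 RPKM followed without overlap. In siBAP18 the order changed at both ends. MCM7 was highest at 40.7 ± 0.339 RPKM, above MCM3 at 28.6 ± 0.750, and MCM10 at 1.23 ± 0.278 RPKM was lowest, below MCMBP at 2.53 ± 0.368. MCM4 at 6.65 ± 0.959, MCM5 at 5.95 ± 0.372 and MCM6 at 5.51 ± 1.22 RPKM overlapped each other, as did MCM8 at 2.78 ± 0.280 and MCMBP.

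The summed level of the ring subunits fell from 158.9 ± 1.20 to 97.6 ± 1.61 RPKM (SD, n = 3), to 61.4% of the control. The share of MCM7 in that sum was 30.9%, 31.0% and 30.4% in siCtrl and 41.96%, 41.3% and 41.9% in siBAP18. MCM3 moved the other way, from 34.0% ± 0.303 to 29.3% ± 0.614. The mean share was 8.72% and 6.80% for MCM4, 7.44% and 6.10% for MCM5, 7.53% and 5.64% for MCM6, and 11.6% and 10.5% for MCM2, whose libraries overlapped between the groups. Since shares add to a whole, those of the other subunits must be smaller where that of MCM7 is larger. The shares were calculated with the gene lengths of the table, which sum all annotated exons, and with the length of the longest coding transcript MCM7 rather than MCM3 was the most abundant subunit in siCtrl as well (32.02% against 27.1%), with 43.3% in siBAP18. With that length the order below them changed too, since in siCtrl MCM4 (13.2% ± 0.919) stood above MCM2 (10.99% ± 0.756) without overlap, and MCM5 (10.8% ± 0.415) above MCM6 (5.82% ± 0.0953).

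**Figure D3:**
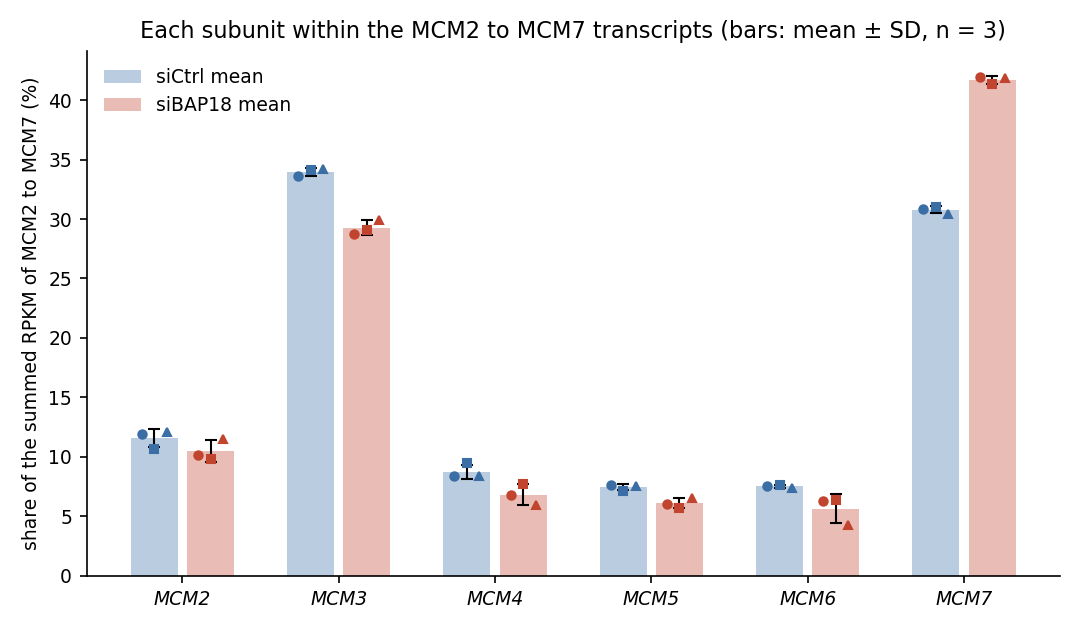
Share of each subunit in the summed RPKM of MCM2 to MCM7, in percent (axis from 0), for siCtrl (blue) and siBAP18 (red), with bars for the mean, black lines for the SD and points for the 3 libraries. The share of MCM7 stands at 30.8% in siCtrl and 41.7% in siBAP18, and those of MCM3, MCM4, MCM5 and MCM6 are smaller in siBAP18.

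Ratios between subunits, which do not depend on library scaling, were compared for the 15 pairs of ring subunits. In 6 pairs the log2 ratio did not overlap between the groups, and all 5 pairs with MCM7 were among them. Relative to MCM7, the change in log2 ratio was −0.58 for MCM2, −0.65 for MCM3, −0.73 for MCM5, −0.80 for MCM4 and −0.88 for MCM6. Among the pairs with MCM7, the replicate spread was largest for MCM6, at −2.03, −2.02 and −2.04 in siCtrl and −2.73, −2.70 and −3.31 in siBAP18. The other separated pair was MCM2 to MCM5, with a log2 ratio of 0.636 ± 0.0491 in siCtrl and 0.780 ± 0.0313 in siBAP18 (SD, n = 3). The exact two-sided permutation test over libraries gave p = 0.1 for each of the 6, which is the smallest value 3 against 3 libraries allow, and 0.25 after Benjamini-Hochberg adjustment over the 15 pairs, so no pair passed 0.05. For the 9 pairs among MCM2 to MCM6 other than MCM2 to MCM5, the ratios overlapped between the groups.

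The fold changes of the members held their direction throughout. In 18 other settings, including the omission of each library, none of the 9 log2 fold changes turned above 0. Leaving out 1 library at a time gave −0.94 to −0.80 for MCM2, −0.96 to −0.89 for MCM3, −1.07 to −0.94 for MCM5, −1.31 to −1.19 for MCM8 and −1.78 to −1.51 for MCM10. MCM4 ranged from −1.15 to −0.99, MCM6 from −1.21 to −0.98, MCM7 from −0.29 to −0.25 and MCMBP from −0.44 to −0.30. In each range from MCM4 to MCM6 one end came from leaving out siBAP18 replicate 2 and the other from leaving out siBAP18 replicate 3.

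**Figure D4:**
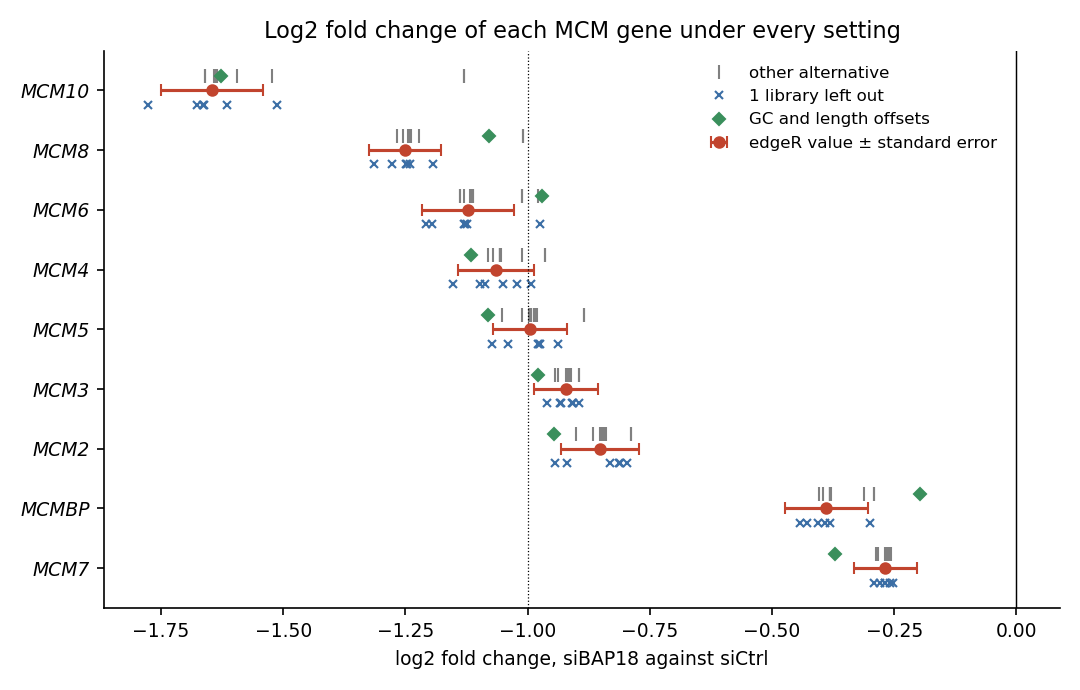
Log2 fold change of each MCM gene (horizontal axis), as fitted with edgeR (red points, bars are the standard error), with 1 library left out (blue crosses), with offsets for GC content and length (green diamonds) and in the other settings (grey ticks), with a dotted line at −1. All marks lie below 0, those of MCM8 and MCM10 all lie below −1, and those of MCM4, MCM5 and MCM6 straddle it.

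The spread among siBAP18 libraries was correlated with GC content in the members too. In siBAP18 replicate 3, MCM6 (43.1% GC) and MCM10 (47.2% GC) deviated by −0.51 and −0.48 on the log2 scale from the mean of the other siBAP18 libraries. MCM2 (58.1% GC) and MCM5 (56.6% GC) deviated by 0.27 and 0.23 in the same library. The median of all genes in the GC bin, described below, was −0.12 for MCM6, −0.097 for MCM10, 0.16 for MCM2 and 0.069 for MCM5. Each of these members thus deviated further than the median of its bin. The Pearson r of the deviation with GC content over the 9 members was 0.74 in replicate 3, −0.76 in replicate 2 and −0.50 in replicate 1. This is a description over genes that share these libraries, and the deviations of the libraries are not independent of each other. MCM8 (42.6% GC), with a deviation of −0.0015, did not follow the pattern in replicate 3. MCM4 (51.0% GC) deviated by −0.22 in replicate 3 and 0.25 in replicate 2, opposite to the medians of its GC bin (0.069 and −0.064), whereas MCM3 (51.6% GC) deviated by 0.12 and −0.038. Across the 14126 genes of at least 1 log2 CPM, ranked by GC content and cut into 4 bins of nearly equal size, the median log2 fold change ran from −0.28 in the bin of lowest GC content to 0.13 in the highest, and MCM6, MCM8 and MCMBP belong to the lowest bin, MCM2 and MCM7 to the highest. With a loess offset for GC content and length in each library, MCM6 was at −0.97, MCM8 at −1.08 and MCMBP at −0.20 (edgeR adjusted p 0.0188), while MCM5 was at −1.08 and MCM7 at −0.37. All 9 members kept an adjusted p under 0.05 with these offsets, and 4 were called at both thresholds, MCM5 in place of MCM6. The part of GC content in the fold changes was not tested beyond this.

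**Figure D5:**
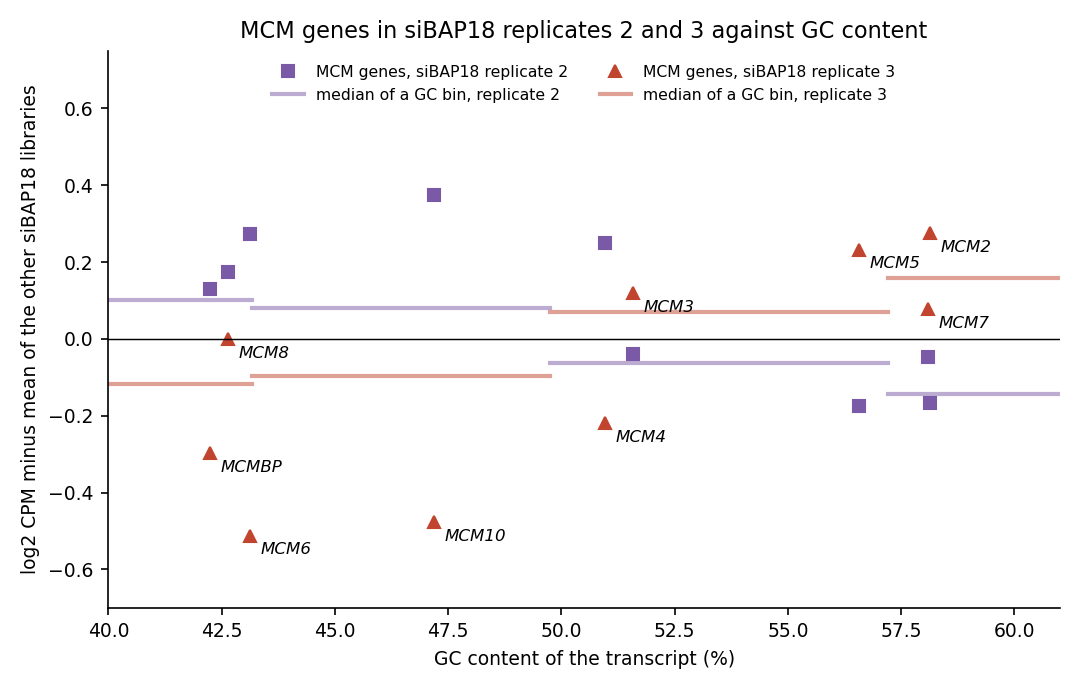
Deviation of each MCM gene in siBAP18 replicate 2 (purple squares) and replicate 3 (red triangles, labelled) from the mean log2 CPM of the other siBAP18 libraries (vertical axis), against the GC content of its longest coding transcript (horizontal axis), with horizontal lines for the median deviation of the 14126 genes of at least 1 log2 CPM in each of 4 bins of GC content. In replicate 3 the deviations run from −0.51 (MCM6) to 0.27 (MCM2), and the medians of the bins run from −0.12 in the lowest bin to 0.16 in the highest.

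Genes that load, activate, accompany or unload the ring were counted from lists compiled by hand. Earlier results of these data were known when the lists were made, so the counts are a description only. Of 47 genes, all of them tested, 35 fell and 2 rose at an adjusted p under 0.05, against 25.1% and 24.5% of all genes tested, and 10 did not pass. At both thresholds 13 were called lower and 0 higher, in edgeR as in DESeq2, against 3.74% and 4.72% of all genes, and the median log2 fold change was −0.70. With limma on log2(RPKM + 1), filtered or not, 3 were called lower. With the GC and length offsets the number called lower was 7, and the number higher at an adjusted p alone was 4. Among the loading factors, 6 of 8 fell, with a median of −0.79. CDC6, the ATPase that brings the ring to the origin, fell by 1.31 (SE 0.0727) on the log2 scale, and ORC1 and ORC6 of the origin recognition complex also fell, with log2 fold changes of −1.16 (SE 0.109) and −0.86 (SE 0.0903). ORC4 at −0.14 and ORC5 at −0.16 did not pass, and are named after their values were seen. With the GC and length offsets ORC4 turned to 0.26 (edgeR adjusted p 0.0063).

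Of the 5 genes that control loading, 4 fell and 1 rose, with a median of −0.76. GMNN, the inhibitor of the loading factor CDT1, fell by 0.78 (SE 0.0774), and DTL and SKP2, which direct the degradation of CDT1, also fell, at −1.06 (SE 0.131) and −0.76 (SE 0.141). Inhibitors and the loading factor they act on were thus lower together, with CDT1 at −0.82. DDB1, an adaptor of the same ubiquitin ligase as DTL, was the 1 gene that rose, at 0.17 (edgeR adjusted p 0.0451). Its call was lost when either siCtrl replicate 1, siCtrl replicate 2, siCtrl replicate 3, siBAP18 replicate 1 or siBAP18 replicate 3 was left out (0.10 to 0.20). The call was also lost without a filter on low counts (edgeR adjusted p 0.0729) and with the GC and length offsets (0.0934). With both replicates 3 left out it was lost too (0.129).

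Activation factors were the longest list, and 14 of 15 fell, with a median of −0.79. GINS1, a subunit of the GINS cofactor, fell from 33.3, 33.0 and 32.8 CPM in siCtrl to 8.62, 10.4 and 8.66 CPM in siBAP18, a log2 fold change of −1.84 (SE 0.0833). The other cofactor of the active ring, CDC45, fell by 1.04 (SE 0.0788), and TICRR, which helps to bring CDC45 to the ring, fell by 0.94 (SE 0.0774). The exception was DONSON at 0.086 (edgeR adjusted p 0.352). Of the 9 fork partners, 8 fell, with a median of −0.86. CLSPN, the checkpoint mediator at the fork, fell from 22.0, 26.9 and 26.9 CPM to 6.16, 5.96 and 6.54 CPM, a log2 fold change of −2.03 (SE 0.0938). WDHD1, which ties the ring to DNA polymerase alpha, fell by 1.65 (SE 0.0968) and POLA1, the catalytic subunit of that polymerase, fell by 1.08 (SE 0.0820). TIPIN at −0.14 did not pass.

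The unloading list was close to the background of all genes. Of 8 genes that take the ring off DNA after replication, 2 fell (25.1% of all genes tested fell), 1 rose (24.5% of all genes) and 5 did not pass, 0 were called at both thresholds, and the median was −0.05. CUL2, the scaffold of the ligase that marks MCM7 at termination, fell by 0.59 (SE 0.0835) and TRAIP, a ligase acting on rings that meet an obstacle, fell by 0.45 (SE 0.112). FAF1, a cofactor of the unloading segregase, rose by 0.31 (SE 0.0662) on the log2 scale, from 41.6, 42.6 and 41.2 CPM to 51.6, 51.3 and 52.96 CPM without overlap. The difference between this list and the others was not tested. Of the partners of MCM8, MCM9 fell by 0.76 (SE 0.105), from 12.1, 12.1 and 10.6 CPM to 6.78, 7.79 and 5.87 CPM. HROB, which recruits MCM8 and MCM9 to DNA and is listed as C17orf53, stood at 3.16, 2.90 and 3.23 CPM in siCtrl and 3.95, 3.34 and 3.70 CPM in siBAP18, a log2 fold change of 0.24 (SE 0.138) that did not pass (edgeR adjusted p 0.155).

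By the outermost gene bounds, several members start back to back with another gene. PRKDC, the catalytic subunit of DNA-dependent protein kinase, starts 2 bases from MCM4 on the opposite strand and fell by 0.62 (SE 0.0799, edgeR adjusted p 4.9e-07), less than MCM4. TRMT6, a tRNA methyltransferase subunit 94 bases from MCM8, was at −0.29 (adjusted p 0.0018), and SEC23IP, 155 bases from MCMBP, at −0.17 (adjusted p 0.0453), both in edgeR. TPRA1, 28 bases from MCM2, measured 8.88 ± 0.503 CPM in siCtrl and 10.2 ± 1.19 CPM in siBAP18 (SD, n = 3) and did not pass (0.19, adjusted p 0.110). AP4M1, whose start lies 391 bases from that of MCM7, measured 18.4 ± 0.816 and 19.5 ± 0.870 CPM and did not pass (0.08, adjusted p 0.426). Of the 5 neighbours, 3 fell at an adjusted p under 0.05, where 25.1% of all genes tested fell. The neighbours of MCM2 and MCM7 did not pass. AP4M1 and MCM7 share 392 exon bases and TPRA1 and MCM2 share 29, on opposite strands, and whether the counting used strand is not given in the sources used here, so reads from these bases could be split either way. The antisense gene MCM8-AS1 overlaps the end of MCM8 with 0 shared exon bases, held 45, 45 and 43 counts in siCtrl and 12, 23 and 8 in siBAP18, and fell by 1.71 (SE 0.339, adjusted p 1.6e-04). The microRNA genes MIR25, MIR93 and MIR106B lie inside MCM7 and held 17 counts or fewer in every library, too few to be tested.

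Sites of the transfected duplexes were sought in the 3′ UTRs of the members (GENCODE 29, hg38), because an siRNA can lower other transcripts through the complement of its guide bases 2 to 8. The word of siBAP18 number 1, AATCACA, was found in MCM6 and MCM8 (in 11.2% of 16480 genes with a 3′ UTR). The word of number 2, AAGATTC, was found in MCMBP (8.82%) and that of number 3, ACTCAAC, in MCM6 (5.65%), while the word of the control duplex, TGTCACG, was in 0 of the 9 members (2.45%). The sites are shown with 10 bases on either side and the word in capitals, since they are the places in these transcripts where a duplex could pair.
MCM6, number 1 (chr2:135839936-135839942, exon 17 of 17): gcattcattaAATCACAaagtatgtta
MCM6, number 3 (chr2:135839852-135839858, exon 17 of 17): acccatgagtACTCAACttgccttgat
MCM8, number 1 (chr20:5994643-5994649, exon 19 of 19): ctcacactgtAATCACAgtgactcagg
MCM8, number 1 (chr20:5994860-5994866, exon 19 of 19): agtgagccacAATCACAccaatcactg
MCMBP, number 2 (chr10:119829758-119829764, exon 16 of 16): catgagtaagAAGATTCaccatcccat
MCM2, MCM3, MCM4, MCM5, MCM7 and MCM10 held none of the 3 BAP18 words in the 3′ UTR searched, which was that of 1 transcript per gene. Since the sources do not say which duplex was used, the part of these sites in the values of MCM6, MCM8 and MCMBP was not tested.

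Genes with a profile most like that of the ring were sought among 14213 genes of at least 1 log2 CPM, by the root mean square distance between their centred log2 CPM over the 6 libraries and the mean centred profile of MCM2 to MCM7. The nearest were PTPN12 (distance 0.0178), WWTR1 (0.0218), USP25 (0.0257), CPOX (0.0264) and KBTBD7 (0.0292), which is a likeness of numbers over 6 libraries only. PTPN12 measured 112, 111 and 114 CPM in siCtrl and 59.3, 60.3 and 60.3 CPM in siBAP18. Of the ring subunits themselves, MCM3 lay nearest to the mean profile (0.0483) and MCM7 farthest (0.305), and MCM10 lay at 0.434.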

How the data were processed

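RNA of 6 A549 cultures was selected for poly(A), made into strand-specific libraries by the dUTP method and sequenced as paired ends of 150 bases, per the labels. The authors deposited raw counts per gene and RPKM values, which are the counts per kilobase of the listed exon length and per 1000000 counts of the library, as a pair of tables with gene positions. The submitters' processing notes list the builds hg38 and GRCm38, and the positions of the members are those of hg38. The aligner and counting program are not given in the sources used here.

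The software was edgeR 4.0.16, DESeq2 1.42.0 and limma 3.58.1 under R 4.3.3. Genes that passed edgeR's filterByExpr (20776 of 35474) were scaled by TMM and compared with edgeR's quasi-likelihood test, with condition as the only term and Benjamini-Hochberg adjustment over all genes tested. Standard errors (SE) were the log2 fold change divided by the root of the F statistic. Genes were called at an adjusted p under 0.05, alone or with an absolute log2 fold change over 1. A gene with 0 counts could hold up to 3, which is 0.0531 to 0.0713 CPM here, and floors and counting errors cover counting error only. On simulated data edgeR called 200 of 200 changed genes and 2 others among 20739. The simulation had a common dispersion for all genes and both groups, no GC effect, and changes well beyond the fold threshold. It therefore does not show how genes near that threshold fare in these data. No pair of replicates agreed within sampling noise, since chi-square over its degrees of freedom was 4.13 to 4.79 in siCtrl and 11.1 to 25.7 in siBAP18.

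The members and gene lists were chosen with earlier results of these data known, and the lists were compiled by hand. Named genes were all members, C17orf49, up to 3 genes of each list with the smallest adjusted p, MCM9 and HROB, genes overlapping a member or starting within 1000 bases on the opposite strand, and the 5 genes nearest in profile. Others are named after their values were seen. Transcript GC content and length came from GENCODE 29, by symbol for 24555 genes and by position for 10315. Promoters came from RefSeq. Python 3.11.15 and matplotlib 3.10.9 were used for sequence searches and plots. Alternatives covered scaling, test, filter, RPKM with limma, a replicate block, omitted libraries, GC and length offsets, and transcript length.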

Additional observations from a re-analysis of the deposited data

How the results depend on the processing

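All 9 MCM genes stayed below 0 in the 18 alternatives, and at an adjusted p under 0.05 except MCMBP with limma on log2(RPKM + 1) without a filter (−0.29, adjusted p 0.0569). At both thresholds, 3 to 5 members were called lower. MCM4 and MCM6 were called in 15 of 18, MCM5 in 5, MCM8 and MCM10 in 18. List genes called lower numbered 3 with limma on log2(RPKM + 1), filtered or not, and 7 with GC and length offsets, against 13. List genes higher at an adjusted p alone were 1 without a filter, 4 with the GC and length offsets and 1 with both replicates 3 left out, against 2, and 1 to 3 with 1 library left out. UBXN7 turned to −0.084 without siBAP18 replicate 2 and stood at 0.18 without siBAP18 replicate 3, and with the offsets ORC4 turned to 0.26 (adjusted p 0.0063), TIPIN to 0.032 and UBXN7 stood at 0.37. The cause was not tested. With the longest coding transcript as length, the shares in siCtrl and siBAP18 were 27.1% and 23.3% for MCM3, 13.2% and 10.3% for MCM4, 10.8% and 8.86% for MCM5, 5.82% and 4.35% for MCM6, and 32.02% and 43.3% for MCM7. The planned lengths from RefSeq proteins were not run, since no protein sequences were given. Over all genes, 1758 were called, against 348 and 345 with limma on log2(RPKM + 1), with and without a filter, and 909 on log2(RPKM + 0.1), where a pseudocount shrinks low genes.

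Libraries of the same replicate number did not deviate together, the correlation of their residuals being −0.017, 0.051 and 0.0038 for numbers 1, 2 and 3. With a replicate block 1741 genes were called, and 4 members lower, as without it. The offsets, the transcript lengths and the joint omission of both replicates 3 were chosen after seeing the data. With 3 libraries a group, and 213 to 11500 counts per member and library, depth limited the members less than the spread among siBAP18 libraries did.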

Other observations

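Genes with an MCM symbol that are no part of the helicase family were also listed. MCM3AP, which encodes a factor of mRNA export named for its binding to MCM3, measured 115, 120 and 118 CPM in siCtrl and 133, 139 and 144 CPM in siBAP18, and rose by 0.24 (SE 0.0651, edgeR adjusted p 0.0036) on the log2 scale. Its antisense gene MCM3AP-AS1 measured 28.3, 29.2 and 29.2 CPM against 34.3, 33.4 and 31.4 CPM, with a log2 fold change of 0.19 (SE 0.0702, edgeR adjusted p 0.0239). The use of strand in counting is not given and the exon overlap of the pair was not measured, so both values are uncertain. MCMDC2, a meiotic gene with an MCM domain, did not pass (0.06, edgeR adjusted p 0.725). These genes were chosen after their values could be seen.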
